A study of Mus musculus with 9 samples.

Results

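A set of 10 type 2 immunity genes linked to beiging, the appearance of heat-producing adipocytes in white fat, was followed in whole inguinal (subcutaneous) fat pads from adult mice. The members were Il33, Il1rl1, Gata3, Il4ra, Il13ra1, Areg, Retnla, Arg1, Chil3 and Mrc1, and a member was measured through the brightest row of the array that the platform annotation names with its symbol alone. Of these 10 genes, 7 had such a row, among 30723 genes measured in all, and each of the 7 had 1 row. The 3 others were not analysed here: no row used here named Il1rl1 or Areg, and the row of Gata3 also names a non-coding RNA gene. A filter on low values kept 5 of the 7 measured genes (Il33, Il4ra, Il13ra1, Retnla and Mrc1) among 16903 genes tested, while Arg1 and Chil3 lay below it and are given as values with a permutation test only.

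The study asked how closely fat that has lost the transcription factor Zfp423, which maintains the white adipocyte state, resembles cold-exposed fat. Control mice (Adiponectin-rtTA; TRE-Cre; Zfp423+/+) were set against inducible adipocyte knockouts (Adiponectin-rtTA; Tre-CRE; Zfp423loxP/loxP). In both genotypes the adiponectin promoter drives rtTA, the doxycycline-dependent activator of Cre, so other cells of the pad may keep Zfp423. All mice ate doxycycline chow for 28 days from 8 weeks of age. Both genotypes were sampled at room temperature, and a further control group was kept at 6 °C for the last 14 of the 28 days; each of the 3 groups has 3 arrays. The knockout group had no cold arm. The label of cold replicate 3 carries a slightly different prefix from the others. Whether each array comes from a mouse of its own is not stated, and the p-values below therefore describe array-to-array spread, which may be technical.

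IL-33 is an alarmin released by stromal and endothelial cells that binds ST2, the receptor encoded by Il1rl1, on group 2 innate lymphoid cells and regulatory T cells. Activated group 2 innate lymphoid cells depend on the transcription factor GATA3, make IL-5, IL-13 and the growth factor amphiregulin (Areg), and recruit eosinophils, a source of IL-4. IL-4 and IL-13 signal through IL-4Rα, alone or paired with IL-13Rα1, to the transcription factor STAT6, which in macrophages turns on the alternative activation genes Retnla, Arg1, Chil3 and Mrc1 and has been tied to beige fat in mice.

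The promoters of 4 members are shown because these genes stand at the ends of the pathway, the alarmin at its start and 3 macrophage products of STAT6 signalling at its end, and because the values below part Retnla from the other genes. They are the 250 bases before the RefSeq start on build GRCm38.p6, written 5′ to 3′ on the gene's strand, with capitals marking every match on either strand to 5 motifs: TTCNNNNGAA (the spacing STAT6 prefers), TTCNNNGAA (the spacing of other STAT factors), AGATAA for the GATA factors, the letters GAGGAA for the macrophage factor PU.1, and TTGCNNAA for the C/EBP factors. The regions are chr16:48842359-48842608 on the plus strand for Retnla, chr19:29924863-29925112 on the plus strand for Il33 (1 of 2 starts), chr3:106167565-106167814 on the minus strand for Chil3 and chr2:14229164-14229413 on the plus strand for Mrc1.
Retnla: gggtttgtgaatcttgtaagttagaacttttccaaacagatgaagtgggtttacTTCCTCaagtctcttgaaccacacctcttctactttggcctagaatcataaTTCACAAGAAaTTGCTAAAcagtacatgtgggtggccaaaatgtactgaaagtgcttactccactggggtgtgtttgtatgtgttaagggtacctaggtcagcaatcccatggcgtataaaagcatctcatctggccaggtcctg
Il33: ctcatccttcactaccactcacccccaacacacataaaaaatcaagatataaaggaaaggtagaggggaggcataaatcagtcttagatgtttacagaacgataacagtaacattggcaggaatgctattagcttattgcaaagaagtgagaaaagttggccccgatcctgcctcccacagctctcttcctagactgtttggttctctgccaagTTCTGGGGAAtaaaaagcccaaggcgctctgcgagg
Chil3: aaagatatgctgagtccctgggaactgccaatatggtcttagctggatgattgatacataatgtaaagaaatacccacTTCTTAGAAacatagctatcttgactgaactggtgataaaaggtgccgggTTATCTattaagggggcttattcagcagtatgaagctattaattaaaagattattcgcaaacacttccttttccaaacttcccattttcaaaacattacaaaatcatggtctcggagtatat
Mrc1: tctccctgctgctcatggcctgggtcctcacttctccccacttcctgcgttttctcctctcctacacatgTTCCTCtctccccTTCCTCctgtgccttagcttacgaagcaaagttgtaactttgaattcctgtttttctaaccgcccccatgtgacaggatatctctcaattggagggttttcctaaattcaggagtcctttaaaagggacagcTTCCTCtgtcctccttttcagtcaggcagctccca

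The Retnla window held the STAT6-spaced match TTCACAAGAA beginning 145 bases before the start, a C/EBP match TTGCTAAA 134 bases before it and a PU.1 match 196 bases before it. The first Il33 window held the STAT6-spaced match TTCTGGGGAA 36 bases before the start, and the window of the other Il33 start held a C/EBP match 85 bases before it. Chil3 held a match with the shorter STAT spacing, TTCTTAGAA, 172 bases before the start and a GATA match 122 bases before it. Mrc1 held 3 PU.1 matches, at 180, 167 and 35 bases before the start. The windows of Il4ra and Il13ra1 held none of the 5 letter patterns, which says only that these letters are not in these windows. Such matches are common: of 32851 RefSeq promoter windows of the same length, 5.85% held the STAT6 pattern, 7.02% the shorter STAT pattern, 9.99% the GATA pattern, 23.25% the PU.1 pattern and 9.56% the C/EBP pattern. A match is a description of the letters and not a measured binding site. RefSeq entries were found for 6 of the 7 measured genes, all but Arg1.

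All values are log2 expression, and the 9 arrays had medians of 5.28 to 5.34. Zfp423 itself averaged 8.45 ± 0.27 (SD, n = 3) for controls, 7.92 ± 0.31 for knockouts and 8.65 ± 0.23 for cold, a knockout difference of -0.53 ± 0.20 (SE) with a limma adjusted p of 0.256, in whole tissue that also holds cells the transgene does not target. Ucp1, the uncoupling protein of thermogenic fat, rose by 6.90 ± 0.47 log2 units in the knockout (limma adjusted p = 0.00992) and by 6.61 ± 0.47 in the cold (adjusted p = 0.00225). All 10 thermogenic adipocyte genes were higher without overlap in the knockout and in the cold, against 9.31% and 14.6% of all tested genes. At a limma adjusted p under 0.05, 7 of the 10 passed in the knockout, against 0.355% of all tested genes. In the cold 8 passed, against 1.5%. Both comparisons use the same 3 control arrays. Some arrays were intermediate within their group for many genes: control replicate 3 for 58.28% of tested genes, knockout replicate 3 for 65.53% and cold replicate 2 for 47.85%. The shares were far from equal, as the other arrays had 18.22% and 18.79% (controls), 15.58% and 14% (knockouts) and 24.31% and 25.08% (cold). The SDs, SEs and p-values here treat the arrays of a group as independent, which was not tested, and they may understate the spread.

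None of the 5 tested genes passed the threshold, an adjusted p of 0.05 by limma over 16903 genes, in any comparison. Between knockout and control 0 of 5 passed, against 0.355% of all tested genes, and 2 of 5 (Retnla and Mrc1) had an unadjusted p under 0.05, against 16.2%. Between cold and control 0 of 5 passed, against 1.5% of all genes, and 2 of 5 (Il4ra and Mrc1) had an unadjusted p under 0.05, against 20.3%. Between cold and knockout 0 of 5 passed, against 2.4%, and 3 of 5 (Il33, Il4ra and Retnla) had an unadjusted p under 0.05, against 26.8%. In the F test over the 3 groups 0 of 5 passed, against 2.55%, and 3 of 5 had an unadjusted p under 0.05, against 26.3%. Adjusted p-values of the F test ran from 0.0876 for Mrc1 through 0.105 for Retnla, 0.152 for Il4ra and 0.246 for Il33 to 0.278 for Il13ra1.

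**Figure D1:**
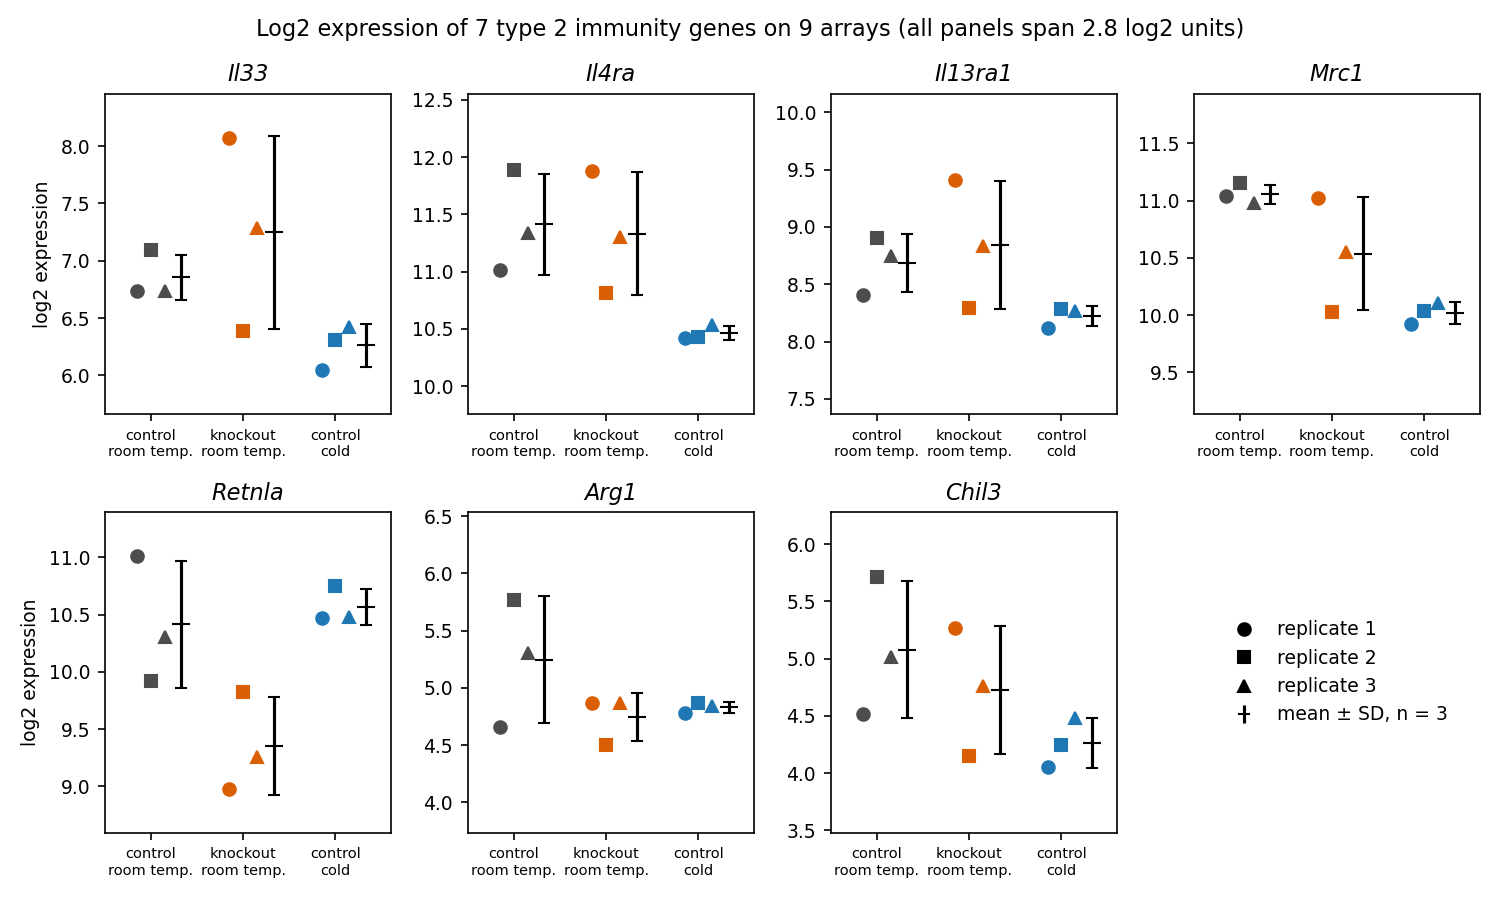
Log2 expression of the 7 measured genes (y axis) on each array of the 3 groups (x axis); shapes mark the replicate number and black bars the mean ± SD of 3 arrays. The cold arrays lie below every control array for Il33, Il4ra, Il13ra1, Mrc1 and Chil3, whereas for Retnla the 3 knockout arrays are the lowest.

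Counted by arrays that do not overlap, the direction was downward in the cold. Of the 7 measured genes, 5 had all 3 cold arrays below all 3 control arrays (Il33, Il4ra, Il13ra1, Chil3 and Mrc1), 4 of them among the 5 tested, while 18.2% of all tested genes had non-overlapping groups in that direction and 14.6% in the other. Between knockout and control, 1 of the 7 did not overlap, Retnla, which was lower in the knockout, against 8.03% of tested genes lower and 9.31% higher. Between cold and knockout, Il4ra and Il13ra1 were lower without overlap, against 20% of tested genes, and Retnla was higher, against 12.3%. The median log2 difference over the 5 tested genes was -0.08 for knockout minus control, -0.60 for cold minus control and -0.62 for cold minus knockout, beside medians of 0.02, -0.02 and -0.03 over all tested genes. With 3 arrays against 3, the smallest p that an exact permutation test can give is 0.1, so that test cannot reach 0.05 here.

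Il33, the alarmin at the head of the pathway, read 6.74, 7.09 and 6.74 on control replicates 1 to 3, 8.07, 6.39 and 7.29 on the knockout replicates, and 6.05, 6.31 and 6.42 on the cold replicates. The 3 cold arrays were below every control array, and the knockout arrays spanned a wider range than all 6 others. Group means were 6.86 ± 0.20 (SD, n = 3) for controls, 7.25 ± 0.84 for knockouts and 6.26 ± 0.19 for cold. The cold minus control difference was -0.60 ± 0.38 (SE), with an interval of -1.49 to 0.30 and a limma adjusted p of 0.404. The knockout minus control difference was 0.39 ± 0.38 (adjusted p = 0.655) and turned to -0.02 without knockout replicate 1. The cold minus knockout difference was -0.99 ± 0.38 (adjusted p = 0.160), and knockout replicate 2 lay within the cold range. Without that array it was -1.42, with a limma adjusted p of 0.0216, in a fit that called 2718 of the 16903 genes in this comparison, against 406 with all arrays. All 3 intervals allow changes of over 1 log2 unit, so equal expression is not shown.

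The receptor chains followed. Il4ra, which encodes the chain shared by the IL-4 and IL-13 receptors, read 11.01, 11.89 and 11.34 in controls, 11.88, 10.81 and 11.30 in knockouts and 10.42, 10.43 and 10.53 in cold. The cold arrays agreed closely and lay 0.47 log2 units below the lowest control array. The means were 11.41 ± 0.44 (SD, n = 3), 11.33 ± 0.54 and 10.46 ± 0.06. The cold minus control difference was -0.95 ± 0.30 (SE; limma adjusted p = 0.162), with an interval of -1.66 to -0.24, and the exact permutation p was 0.1. Cold minus knockout was -0.87 ± 0.30 (adjusted p = 0.131), and again no arrays overlapped. Knockout and control overlapped fully, with a difference of -0.08 ± 0.30, an interval of -0.79 to 0.63 and an adjusted p of 0.923.

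Il13ra1, the partner chain that makes the receptor able to bind IL-13, showed the same order of groups for the cold at a smaller size. It read 8.41, 8.90 and 8.75 in controls, 9.41, 8.29 and 8.83 in knockouts and 8.12, 8.28 and 8.27 in cold. The means were 8.69 ± 0.26 (SD, n = 3), 8.85 ± 0.56 and 8.22 ± 0.09. The cold arrays were lowest throughout, by a margin of 0.13 log2 units from the controls and 0.02 from the knockouts. Differences were -0.46 ± 0.27 (SE) for cold minus control (limma adjusted p = 0.359), -0.62 ± 0.27 for cold minus knockout (adjusted p = 0.190) and 0.16 ± 0.27 for knockout minus control (adjusted p = 0.805). Without knockout replicate 2, the cold minus knockout difference passed for both chains, at -1.13 for Il4ra (limma adjusted p = 0.0437) and -0.90 for Il13ra1 (adjusted p = 0.0381), in the fit that called 2718 genes. Stat6, the factor downstream of both receptors, averaged 10.34, 10.30 and 10.19 in control, knockout and cold.

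Among the macrophage genes, Mrc1 had the smallest adjusted p of any member against control. It encodes the mannose receptor CD206, an endocytic receptor of resident and alternatively activated macrophages. It read 11.04, 11.15 and 10.98 in controls, 11.02, 10.03 and 10.55 in knockouts and 9.92, 10.04 and 10.11 in cold. The cold arrays were together and 0.88 log2 units below the lowest control, and the knockout arrays ran from the control range to the cold range. The means were 11.06 ± 0.08 (SD, n = 3), 10.54 ± 0.49 and 10.02 ± 0.10, so control was 2.05-fold above cold. The cold minus control difference was -1.04 ± 0.22 (SE), with an interval of -1.55 to -0.52 and a limma adjusted p of 0.0745. Knockout minus control was -0.52 ± 0.22 (limma adjusted p = 0.305) and cold minus knockout -0.51 ± 0.22 (adjusted p = 0.189). Whether Mrc1 passed depended on which arrays entered the fit. The cold difference passed in a fit of the controls and cold arrays alone (limma adjusted p = 0.00336), without knockout replicate 1 (0.0166) and without knockout replicate 2 (0.0129). These fits also called more genes in all, 1355, 827 and 985 of 16903 in that comparison, against 254 with all arrays. Without replicate 1 the knockout difference also passed, at -0.76 ± 0.15 (adjusted p = 0.0479 by limma), as 1 of 817 genes called against 60 with all arrays. Without replicate 2 cold minus knockout passed at -0.76 (limma adjusted p = 0.0234), among the 2718 genes called in that fit.

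Retnla had another order. It encodes RELMα (FIZZ1), a secreted protein that IL-4 and IL-13 induce strongly in macrophages. It read 11.01, 9.92 and 10.30 in controls, 8.98, 9.82 and 9.26 in knockouts and 10.47, 10.75 and 10.48 in cold. All 3 knockout arrays were below all 6 others, by 0.10 log2 units from the lowest control and 0.65 from the lowest cold array, and the cold arrays lay inside the control range. The means were 10.41 ± 0.55 (SD, n = 3), 9.36 ± 0.43 and 10.57 ± 0.16. Cold was 2.31-fold above knockout, a log2 difference of 1.21 ± 0.31 (SE), with an interval of 0.48 to 1.94 and a limma adjusted p of 0.0761. Knockout minus control was -1.06 ± 0.31 (limma adjusted p = 0.168), with an interval of -1.78 to -0.33. Cold minus control was 0.15 ± 0.31 (adjusted p = 0.813) and changed sign to -0.09 without control replicate 2. The cold minus knockout difference passed without control replicate 1 (limma adjusted p = 0.0487) and without knockout replicate 2 (1.44, adjusted p = 0.0326), in fits that called 643 and 2718 genes against 406 with all arrays.

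Arg1 and Chil3 both lay below the filter. Arg1, the arginase that competes with nitric oxide synthase for arginine, read 4.66, 5.77 and 5.30 in controls, 4.87, 4.50 and 4.87 in knockouts and 4.78, 4.87 and 4.84 in cold. Control replicates 2 and 3 stood above the rest, and control replicate 1 lay among the other groups, so the groups overlapped. The means were 5.25 ± 0.56 (SD, n = 3), 4.75 ± 0.21 and 4.83 ± 0.05, and the log2 differences were -0.50 for knockout minus control, -0.42 for cold minus control and 0.08 for cold minus knockout, with exact permutation p-values of 0.3, 0.4 and 1.0. Chil3 (Ym1), a secreted chitinase-like lectin, read 4.52, 5.71 and 5.01 in controls, 5.27, 4.15 and 4.76 in knockouts and 4.05, 4.25 and 4.48 in cold. Every cold array was below every control array, by 0.03 log2 units at the closest, and the means were 5.08 ± 0.60 (SD, n = 3), 4.73 ± 0.56 and 4.26 ± 0.22. The cold minus control difference was -0.82, control being 1.76-fold above cold, and its exact permutation p was 0.1, the smallest possible. Knockout minus control was -0.35 and cold minus knockout -0.47, both with overlapping arrays. In a fit without the filter, the limma adjusted p of cold against control was 0.493 for Arg1 and 0.371 for Chil3.

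**Figure D2:**
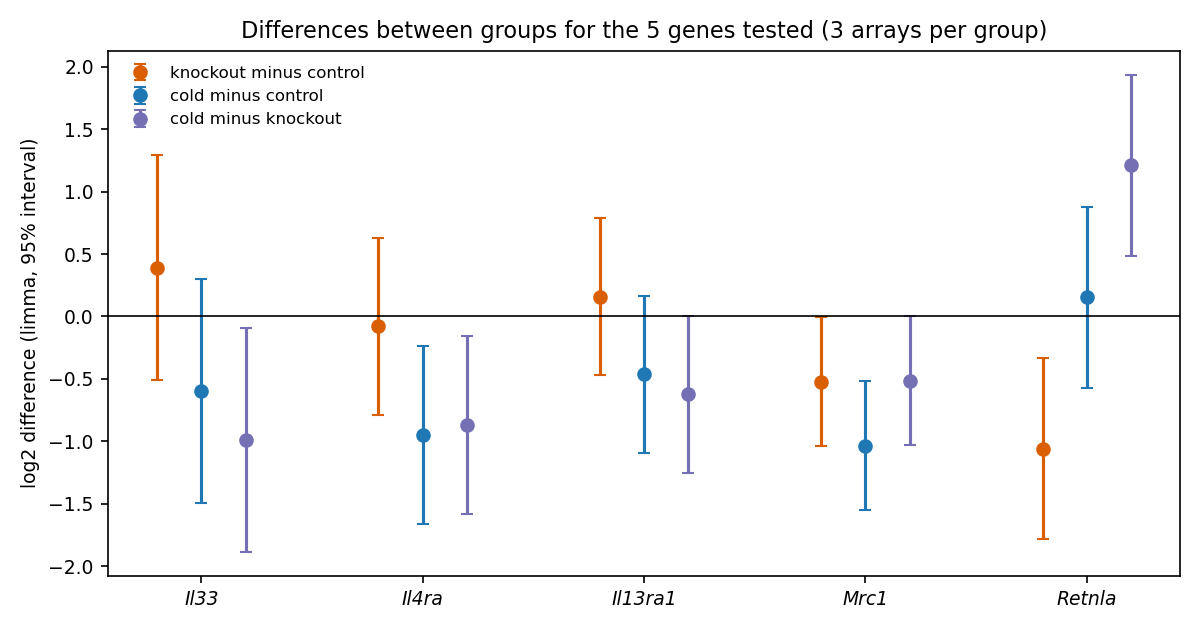
Log2 differences between groups (y axis) for the 5 tested genes (x axis), with 95% intervals from limma over 9 arrays, 3 per group. Intervals clear of 0 are those of Il4ra and Mrc1 for cold minus control, Mrc1 and Retnla for knockout minus control, and Il33, Il4ra and Retnla for cold minus knockout, but none of the 5 passed after adjustment over all genes.

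In order of group means, cold was lowest for Il33, Il4ra, Il13ra1, Chil3 and Mrc1, and knockout was lowest for Retnla and Arg1. The lowest group did not overlap the middle one for Il33, Il4ra, Il13ra1 and Retnla. The other neighbours in these orders overlapped: the middle and highest groups for all 7 genes, and the lowest and middle groups for Arg1, Chil3 and Mrc1.

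The members also varied together from array to array within a group. Control replicate 2 was the highest control array for 6 of the 7 genes, all but Retnla, and knockout replicate 1 was the highest knockout array for 6 of 7. Knockout replicate 2 was the lowest knockout array for 6 of 7. Retnla was the exception in these 3 counts. For all 7 genes, Retnla included, knockout replicate 3 lay between the others and cold replicate 1 was the lowest cold array. Over the 9 arrays, Pearson's r among Il33, Il4ra, Il13ra1, Chil3 and Mrc1 ran from 0.713 (Il33 with Mrc1) to 0.968 (Il33 with Il13ra1). Arg1 followed them less closely, with r of 0.255 with Il33, 0.435 with Il13ra1, 0.573 with Mrc1, 0.595 with Il4ra and 0.810 with Chil3. Retnla had r of -0.769 with Il33, -0.656 with Il4ra, -0.246 with Mrc1 and -0.10 with Arg1. These are descriptions over 9 arrays that fall into the 3 groups, and not tests.

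Markers of immune cells moved over the arrays with most of the members. The mean of 16 macrophage markers, relative to the control mean, was -0.58, 0.60 and -0.02 on control replicates 1 to 3, 0.75, -1.04 and 0.02 on the knockouts, and -1.16, -1.11 and -0.995 on the cold arrays. On the same scale Il4ra was -0.40, 0.48 and -0.07, then 0.47, -0.60 and -0.11, then -0.99, -0.98 and -0.88. Mrc1 was near 0 on all 3 controls (-0.02, 0.09 and -0.07), then -0.04, -1.02 and -0.50 on the knockouts and -1.14, -1.02 and -0.95 in the cold. Retnla ran otherwise, at 0.60, -0.49 and -0.11, then -1.43, -0.59 and -1.15, then 0.06, 0.34 and 0.06. Thus Retnla was highest on the control array with the lowest macrophage mean and lowest on the knockout array with the highest. In whole tissue, fewer cells of a type and less RNA per cell cannot be told apart.

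**Figure D3:**
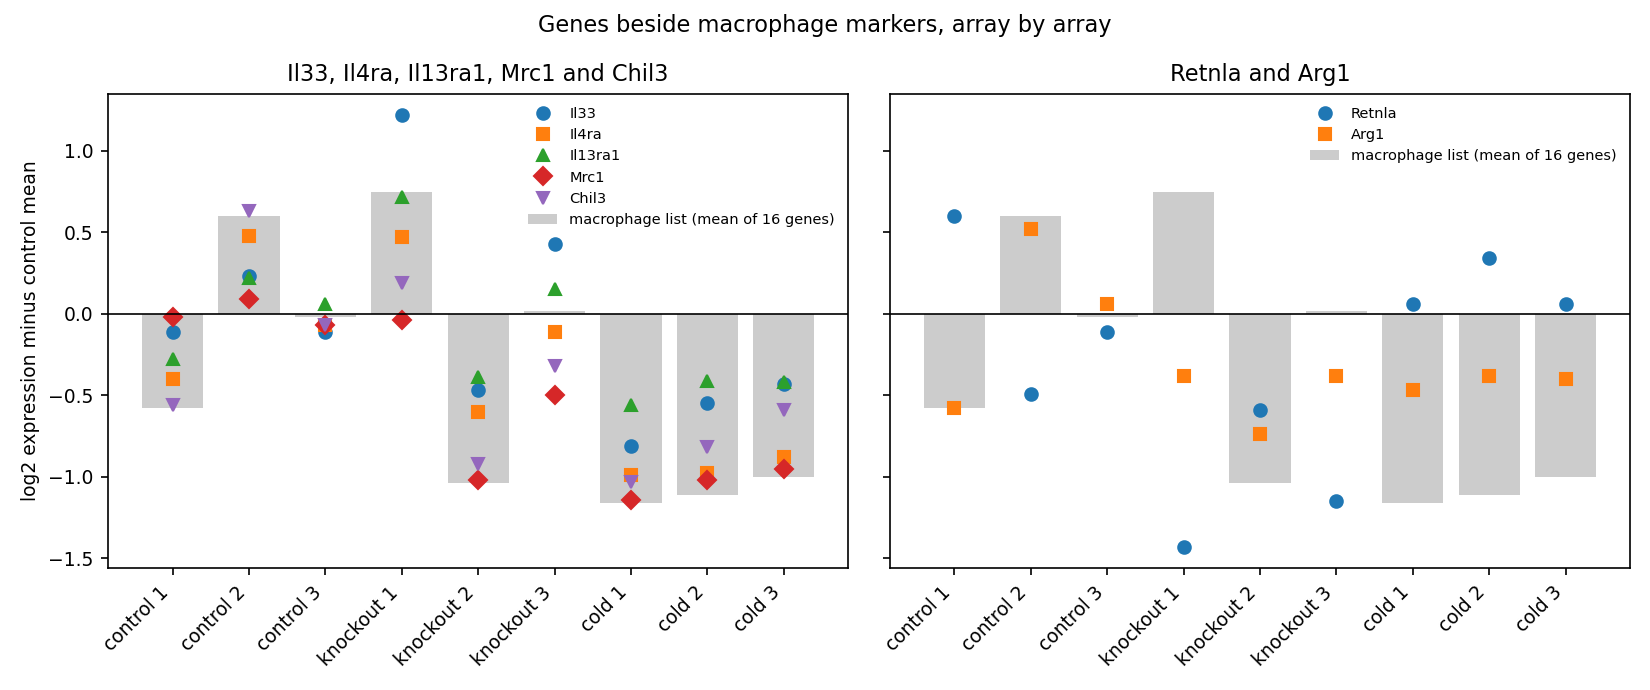
Log2 expression minus the control mean (y axis) on each array (x axis) for 5 genes (left) and for Retnla and Arg1 (right), with grey bars for the mean of 16 macrophage markers. The 5 genes on the left and the bars are both low on knockout replicate 2 and the 3 cold arrays, while Retnla is highest on control replicate 1, where the bar is at -0.58.

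All 16 macrophage markers were above the filter. Their summed log2 level ran from 15.56 to 17.32 in controls, 15.42 to 17.96 in knockouts and 15.09 to 15.18 in cold. None passed the test, and the median differences were -0.03, -1.17 and -0.93 (knockout minus control, cold minus control, cold minus knockout). In cold against control, 14 of 16 were lower without overlap and 1 was higher, against 18.2% and 14.6% of all tested genes. The largest cold minus control values were those of Cd68 (-2.26 ± 0.84, limma adjusted p = 0.207) and of the lysosomal protease gene Ctss (-1.92 ± 0.80, adjusted p = 0.241). Measured against the macrophage list on each array, the cold minus control difference was 0.49 for Il33, 0.14 for Il4ra, 0.62 for Il13ra1 and 0.05 for Mrc1, where the median of all genes stood at 1.07. On that scale Retnla was 2.21 ± 0.54 (SE) higher in cold than in knockout (limma adjusted p = 0.00536). The median of all genes was 0.97 there, and 398 of 16903 genes were called. Every tested member had the same SE in this fit, so the p-value does not reflect Retnla's own array spread. Relative to the control mean and the list, Retnla was at -2.18, 0.45 and -1.17 on the knockouts and 1.21, 1.45 and 1.06 in the cold.

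Lymphocyte markers had negative median differences in the cold too. For 12 T cell markers, all above the filter, the summed log2 level ran from 12.89 to 13.64 in controls, 12.95 to 14.83 in knockouts and 12.11 to 12.28 in cold, and 0 of 12 passed. Their median differences were 0.65, -0.90 and -1.58. All 12 were lower without overlap in cold than in control, against 18.2% of all tested genes, and than in knockout, against 20%. Cd3e, a chain of the T cell receptor complex, had -1.30 ± 0.48 in cold against control (limma adjusted p = 0.202). For 9 B cell markers the summed level ran from 14.22 to 14.95, from 13.79 to 14.67 and from 13.56 to 13.88, 0 of 9 passed, and the medians were -0.19, -1.22 and -1.04. Of these 9 markers, 3 were lower without overlap in cold than in control, against 18.2% of all tested genes. In cold against knockout it was 0 of 9, against 20%. The mean of 5 neutrophil markers stood 1.87 log2 units above the control mean on knockout replicate 1. It was 1.33 above it on replicate 3 and at -0.31 on replicate 2. The median knockout minus control difference over these markers was only 0.21, and 0 of 5 passed. The largest differences were those of S100a8 (2.46 ± 1.12, limma adjusted p = 0.338) and S100a9 (2.03 ± 1.08, adjusted p = 0.406). S100a8 averaged 5.26, 7.72 and 4.81 in control, knockout and cold, so only its knockout mean lay above the filter level. For cell types that make IL-33, 0 of 10 progenitor and fibroblast markers passed, with medians of -0.39, -0.51 and -0.23, and 0 of 9 endothelial markers, with medians of -0.18, 0.43 and 0.54. On knockout replicate 1, where Il33 was highest, the list means were -0.005 and -0.64 relative to control. Adipocyte markers ran in part the other way, their mean at 0.17, -0.20 and 0.04 on the controls, -0.56, 0.14 and -0.11 on the knockouts and 0.27, 0.24 and 0.16 in the cold. Skeletal muscle markers stood far below the control mean on cold replicate 3 (-4.26) and on knockout replicate 1 (-1.59), and lay between -0.77 and 0.33 on the others. The part of these cells in the members' values was not tested beyond the scaling to marker lists. Of 10 epithelial markers 10 were below the filter, as were 6 of 8 mesothelial markers.

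**Figure D4:**
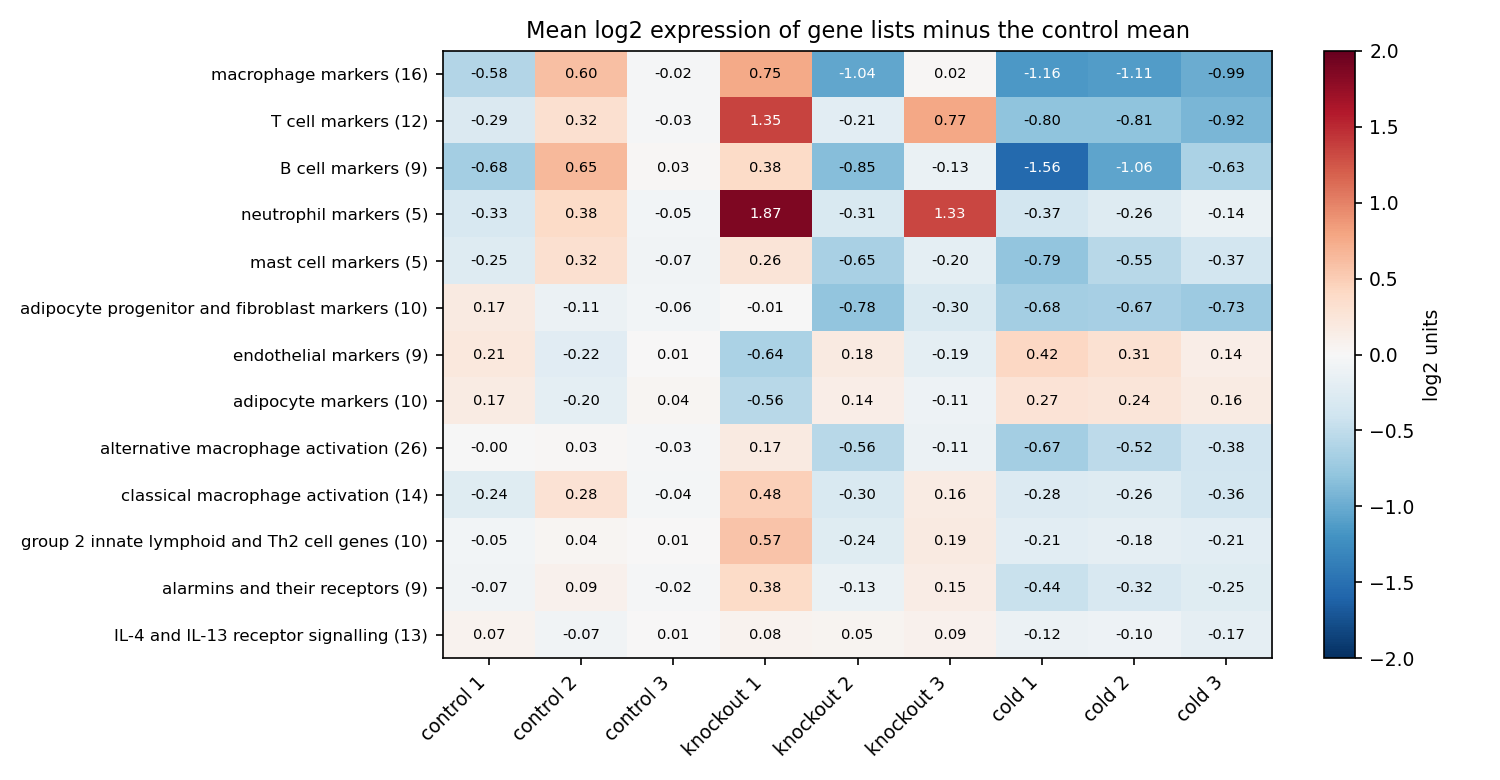
Mean log2 expression of 13 gene lists (rows, number of tested genes in brackets) minus the control mean on each array (columns); red is above and blue below the control mean. The macrophage, T cell and B cell lists are below 0 on all 3 cold arrays, on knockout replicate 2 and on control replicate 1. The neutrophil list reaches 1.87 on knockout replicate 1.

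The rest of the pathway was read through lists of its genes. Among alarmins and their receptors 12 of 14 genes had a row and 9 were tested; Tslp, Il25 and Il17rb were below the filter. Il7r, the receptor chain for IL-7 and TSLP that lymphocytes carry, fell by 1.89 ± 0.27 (SE) log2 units in cold against knockout (limma adjusted p = 0.0238). It was the 1 gene of the 9 to pass in any comparison, and 2.4% of all tested genes passed in that one. Its means were 11.07, 11.95 and 10.05 in control, knockout and cold. The list's medians were -0.03, -0.26 and -0.23. Il1rap, the accessory chain of ST2, averaged 5.37, 5.34 and 5.36.

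Of 20 genes of group 2 innate lymphoid and Th2 cells, 10 were below the filter, among them the cytokines Il4, Il5, Il13 and Il9 and the receptor Ptgdr2, and 0 of the 10 tested passed. The medians were 0.30, -0.39 and -0.86. Icos, a costimulatory receptor of T and innate lymphoid cells, was lower in cold than in knockout (-1.61 ± 0.45, limma adjusted p = 0.0870), and Zbtb16, which encodes the lineage factor PLZF, was higher (1.71 ± 0.40, adjusted p = 0.0670). Of the eosinophil genes with a row, 7 of 10 were below the filter, including Siglecf, Epx, Prg2 and Ccr3, and 0 of 3 passed. Ccl11, the eosinophil attractant eotaxin, averaged 11.58, 10.91 and 11.51, a knockout difference of -0.67 ± 0.27 with a limma adjusted p of 0.285. The defining cytokines and granule proteins of both cell types thus lay below the filter in the whole pad.

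Of 13 tested genes of IL-4 and IL-13 receptor signalling, 0 passed, and the medians were 0.01, -0.10 and -0.13. Nearest was Bcl6, a repressor that counters STAT6 at its targets, with a cold minus control difference of 1.68 ± 0.30 (limma adjusted p = 0.0503). Ppargc1b, a coactivator of alternative activation that adipocytes also use, had 1.87 ± 0.36 in the knockout (adjusted p = 0.0789 by limma). Cish, a cytokine-induced inhibitor of STAT signalling, had -2.08 ± 0.57 in the cold (limma adjusted p = 0.123).

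Among 26 further tested genes of alternative macrophage activation 0 passed, with medians of -0.13, -0.44 and -0.24. Of these 26, 12 were lower in cold than in control without overlap, against 18.2% of all tested genes. Values were -1.86 ± 0.42 for the chemokine Ccl6 (limma adjusted p = 0.0856) and -1.89 ± 0.67 for Timd4, a receptor for dying cells on resident macrophages (adjusted p = 0.192). Ccl6 also had -1.46 ± 0.42 in the knockout (limma adjusted p = 0.164), whereas Ccl8 had 1.59 ± 0.91 there (adjusted p = 0.439). Of 14 tested genes of classical activation, 1 passed, in cold against knockout, where 2.4% of all tested genes passed. It was Nos2, the inducible nitric oxide synthase, at 0.48 ± 0.09 (limma adjusted p = 0.0470). Its means were low, at 5.80, 5.72 and 6.20 in control, knockout and cold, with the filter at 5.31. The list's medians were 0.13, -0.36 and -0.43. Of 6 tested genes of the epidermal growth factor family, to which amphiregulin belongs, 0 passed, and its receptor Egfr had -0.74 ± 0.30 in the knockout (limma adjusted p = 0.289). Of 4 genes of the enkephalin and local noradrenaline axis, 0 passed.

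Genes whose log2 values ran most like those of each member over the 9 arrays were ranked by Pearson's r, as a description. For Il33 they were Havcr2, Mcoln3 and Syngr2 (0.994, 0.994 and 0.992), and for Il4ra Clic1, Tut4 and Cyth4 (0.994, 0.992 and 0.992). For Il13ra1 they were Naip3, Serpinb1b and Cnot6l (0.993, 0.988 and 0.988). For Mrc1 they were Abi1, Drr1 and Folr2 (0.990, 0.984 and 0.977), and for Chil3 Pisd-ps3, Susd1 and Pisd-ps1 (0.995, 0.994 and 0.992). For Retnla they were Ulk2, Golim4 and Tcaf1 (0.987, 0.986 and 0.984), and for Arg1 Wasf2, Vav3 and Ccl7 (0.969, 0.965 and 0.961). High likeness was frequent: of about 11720 genes compared, r was at least 0.95 for 2.33% with Il33, 2.91% with Il4ra and 3.05% with Il13ra1, against 0.67% with Retnla, 0.70% with Chil3, 0.10% with Mrc1 and 0.03% with Arg1.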

How the data were processed

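Fat pad RNA was profiled on Affymetrix Mouse Transcriptome Arrays, 1 per sample. The authors deposited log2 values for 72688 rows on 9 arrays, made with Affymetrix Expression Console per the submitters' processing notes; the sources used here give no version, normalization or build. The values (1.84 to 19.93) were taken as log2 from their range. The platform annotation gave 1 gene for 31266 rows and several for 1484; 39938 rows were outside it. Through Entrez IDs and RefSeq (GRCm38.p6), 936 symbols were updated. The brightest row per gene was kept where its mean was at least 5.31, the median of all row means, leaving 16903 genes. Groups were fitted as 3 means over 9 arrays in R 4.3.3 with limma 3.58.1 (lmFit, eBayes; 6 residual and 1.23 prior degrees of freedom), two-sided, with Benjamini-Hochberg adjustment over all tested genes and a threshold of 0.05; intervals are 95%. Permutation tests were exact and two-sided. The fit was also run on simulated arrays with noise drawn independently for each gene and array. That run does not cover variation that genes share between arrays, and it gives no error rate for these data. Replicate numbers were not used to pair the arrays in the main fit. Same-numbered arrays of 2 groups had correlations of their deviations from the group means between -0.461 and 0.084. With 3 arrays per group these values can neither show nor exclude pairing. The precision is limited by the number of arrays, which carry no count.

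All members are named. Of each other list, up to 3 genes past the threshold per comparison, or else up to 2 with the largest difference, could be named, along with the 3 genes most like each member; Zfp423 and Ucp1 check the labels, and Stat6 and Il1rap were added for their place in the pathway, after the values were seen. The members and lists were chosen with earlier results of these data known, and no test over a list was made.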

Additional observations from a re-analysis of the deposited data

How the results depend on the processing

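The count of members past the threshold, 0 in each comparison, held under median centring, quantile normalization, both other filters, the mean of a gene's rows, an intensity trend and a robust prior, and with a replicate block (0 called in each comparison; limma adjusted p of 0.168 for Mrc1, cold against control, and 0.182 for Retnla, cold against knockout). Some of these fits called fewer genes in all. The replicate block called 1, 42, 36 and 57 of 16903 (knockout against control, cold against control, cold against knockout, F test). The fit without a filter called 13, 130, 219 and 203 of 30723, so 0 members says little there. Quantile normalization called more than the main fit, at 63, 371, 565 and 585. A fit of only the 2 groups compared called 1 member and 1355 genes in cold against control. Array weights, which did not converge, called 3, 5, 5 and 5 members (knockout against control, cold against control, cold against knockout, F test), beside 11840, 8956, 9971 and 13297 of all genes. Leaving out 1 array gave 0 to 1, 0 to 1, 0 to 5 and 0 to 2 members. The arrays concerned are knockout replicates 1 and 2 and control replicate 1. Several of the fits that gained no member called few genes in all. These counts were 1, 23, 73 and 33 without control replicate 3, and 0, 73, 14 and 37 without knockout replicate 3. In the tests where members were gained, all-gene counts were higher too: without knockout replicate 1, 817 (knockout against control), 827 (cold against control) and 1088 (F test), without knockout replicate 2, 985 (cold against control), 2718 (cold against knockout) and 2117 (F test), and without control replicate 1, 643 (cold against knockout), beside 60, 254, 406 and 431 with all arrays in the 4 tests. Without the 3 arrays that lie between the other 2 of their group, chosen after seeing the data, 0 members were called. That fit also called 0 of all 16903 genes in each test, so its count says nothing particular to the members. Relative to the macrophage list, cold against knockout and the F test each called 1 member, Retnla, among 398 and 914 genes, and so did values relative to the T and B cell lists, an alternative also chosen after seeing the data, which called 13686 and 11402 of all genes in these tests. In the macrophage scaling every tested member had the same SE, 0.54, so its p-values do not reflect a gene's own array spread. These scalings moved the median of all genes to 0.11, 1.07 and 0.97 (macrophage) and to -0.26, 0.925 and 1.20 (T and B cell). Signs turned under them. Relative to macrophages, cold minus control became 0.49 for Il33, 0.14 for Il4ra, 0.62 for Il13ra1 and 0.052 for Mrc1, cold minus knockout 0.012, 0.13, 0.38 and 0.48, and knockout minus control 0.0085 for Il4ra. Relative to T and B cells, cold minus control became 0.35 for Il33 and 0.48 for Il13ra1, cold minus knockout 0.24 for Il33, 0.35 for Il4ra, 0.60 for Il13ra1 and 0.71 for Mrc1, and knockout minus control -0.12 for Il13ra1. All these values lie below the shifted median, except that of Il13ra1 in knockout minus control. With 1 array left out, knockout minus control ran from -0.021 to 0.82 for Il33, from -0.36 to 0.18 for Il4ra and from -0.12 to 0.43 for Il13ra1, and cold minus control from -0.092 to 0.45 for Retnla.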
